A study of Caenorhabditis elegans with 6 samples.

Results

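Embryonic transcripts of the nuclear pore and of nuclear transport were measured in *C. elegans* by RNA-seq, after mothers had been fed bacteria for RNAi of *pri-1*, which encodes a DNA primase subunit, or the empty vector (EV). The genes were all rows of the deposited gene table whose symbol begins with *npp*, *imb*, *ima*, *xpo* or *ran* followed by a number. This gave 39 of 19933 genes: 25 nucleoporin genes (*npp*), 3 importin beta family genes (*imb*), 3 importin alpha genes (*ima*), 3 exportin genes (*xpo*) and 5 genes of the Ran system (*ran*). There were 3 *pri-1* RNAi libraries and 3 EV RNAi libraries, all from wild-type N2 worms that were started on RNAi food as synchronized first-stage larvae and kept at 20 °C for 96 hours. Each library holds RNA pooled from the eggs scraped off plates after adults and hatched worms had been washed away, so it can mix embryos of different ages. According to the study, embryos of *pri-1* RNAi mothers do not hatch and arrest early, before morphogenesis. Embryo stage can therefore differ between the groups. The study describes the replicates as separate experiments. The labels do not say what the experiments shared, and p-values measure the spread between these libraries.

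The nuclear pore complex is a ring of nucleoporins set into the nuclear envelope. An outer ring built of Y-shaped complexes and an inner ring form its scaffold, membrane nucleoporins anchor it, and nucleoporins with phenylalanine-glycine repeats fill the channel through which cargo passes. Importins carry proteins with a localization signal into the nucleus and exportins carry cargo out, and the small GTPase Ran, held in its GTP form inside the nucleus, sets the direction of both. In the early *C. elegans* embryo the envelope and its pores are taken down and rebuilt at every cell division, and much of the RNA for these proteins is supplied by the mother.

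Values are CPM, the reads of a gene per 1000000 reads assigned to genes in that library. The CPM were deposited without the reads behind them, but their steps gave back between 122751282 and 162069400 reads per library, or between 61375641 and 81034700 if a step is a single mate of a read pair. EV replicate 3 stood apart in composition, with a TMM scaling factor (the trimmed mean of M values, computed here) of 0.697, against 1.05 and 1.26 in the other EV libraries and 0.935 to 1.15 in the *pri-1* RNAi libraries. The RNAi target *pri-1* had 28.6, 28.7 and 24.3 CPM in *pri-1* RNAi embryos, against 41.2, 47.2 and 26.9 CPM in EV RNAi embryos. The groups overlapped in the deposited CPM, with a log2 fold change of -0.46 (SE 0.29, limma adjusted p = 0.285). After TMM scaling they did not overlap. The *pri-1* RNAi libraries then had 24.9, 30.7 and 24.1 CPM, against 39.4, 37.3 and 38.6 CPM in EV RNAi libraries. Some embryo stage markers differed as well. Of 11 tested epidermis and cuticle genes of the late embryo, 7 were lower and 3 higher in *pri-1* RNAi embryos, and the sum of that list was 2352 to 4979 CPM in *pri-1* RNAi libraries, against 6888 to 11786 CPM in EV RNAi libraries. These are 63.6% and 27.3% of the list, where 9.94% of all tested genes were lower and 17.3% higher. The sums of the late muscle genes overlapped, at 5619 to 9977 CPM in *pri-1* RNAi libraries, against 7687 to 14107 CPM in EV RNAi libraries. Those of the early zygotic genes overlapped too, at 40.3 to 109 CPM in *pri-1* RNAi libraries, against 29.2 to 76.8 CPM in EV RNAi libraries. Maternal and germ plasm genes summed to 359 to 511 CPM in *pri-1* RNAi libraries, against 181 to 290 CPM in EV RNAi libraries, but without *mex-3*, left out after the values were seen, the sums were 278, 205 and 241 CPM in *pri-1* RNAi libraries, against 246, 150 and 152 CPM in EV RNAi libraries, and overlapped. Of the 12 genes 2 were higher and 1 lower (16.7% and 8.33%), shares close to those over all tested genes. Adult worm genes summed to 24.1, 18.8 and 63.3 CPM in *pri-1* RNAi libraries, against 789, 16.9 and 105 CPM in EV RNAi libraries, and overlapped, with none of the 7 past the test in limma. No marker of these lists was at 0 in every library of a group. The part of these differences in the results that follow was not tested, and in pooled embryos fewer cells with a transcript and less of it per cell cannot be told apart.

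Nuclear pore and transport transcripts were more often higher than lower in *pri-1* RNAi embryos. Of the 39 genes, all of which passed the filter of 0.5 CPM in 3 libraries, 17 rose, 1 fell and 21 did not pass the test (limma on log2(CPM + 0.5), adjusted p under 0.05). The 17 were 43.6% of the genes, against 17.3% of all 14801 tested genes that rose, and the 1 that fell compares with 9.94% of tested genes that fell. The median log2 fold change was 0.76 over the 39 genes and -0.01 over all tested genes, and 31 of the 39 values were above 0. The groups did not overlap in 25 genes, 22 with the *pri-1* RNAi libraries on top and 3 with them at the bottom, while over all tested genes 25.4% were separated upward and 19.8% downward. Their summed level was 10326, 7404 and 9712 CPM in *pri-1* RNAi embryos, against 4122, 3711 and 4455 CPM in EV RNAi embryos. With 3 libraries in each group an exact two-sided permutation test cannot give a p below 0.1, so each separated gene has an exact p of 0.1.

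**Figure D1:**
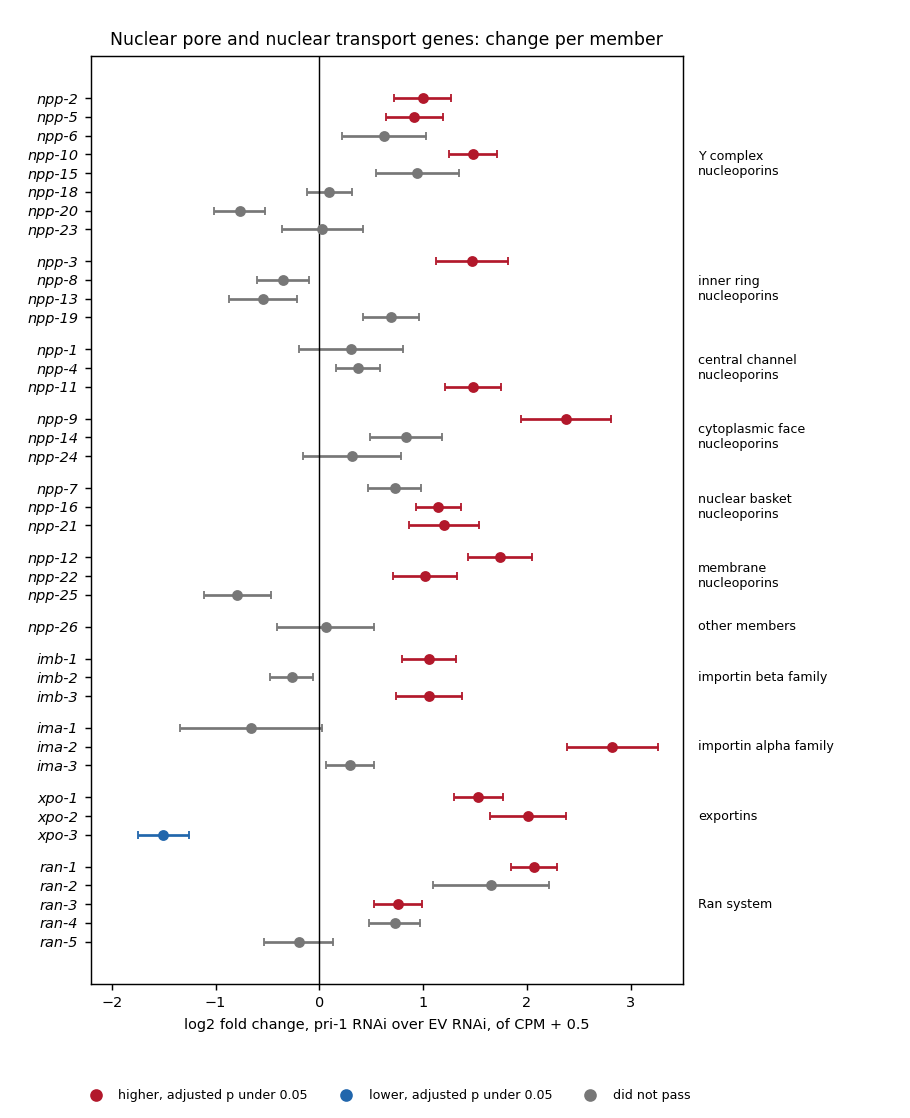
Change of each of the 39 genes, in groups by role. Points are log2 fold changes of *pri-1* RNAi over EV RNAi on the log2(CPM + 0.5) scale, bars are 1 standard error from limma, and filled colours mark the 17 genes that rose and the 1 that fell at an adjusted p under 0.05. The values lie between -1.50 for *xpo-3* and 2.82 for *ima-2*.

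The number of genes past the test depended on the model and on single libraries. On the reads recovered from the CPM, edgeR called 7 of the 39 higher, where it called 20.2% of all genes higher, and 3 lower, where it called 15.5% of all genes lower. By edgeR the share that rose was therefore not above that of all 17784 genes it tested, which passed a looser filter than in limma. Of its 7, 6 were among the 17. The 11 that edgeR did not call were *npp-2*, *npp-3*, *npp-5*, *npp-9*, *npp-11*, *npp-16*, *npp-22*, *imb-1*, *imb-3*, *xpo-1* and *ran-3*, with log2 fold changes between 0.53 and 1.81 (edgeR adjusted p between 0.053 and 0.355). DESeq2 on the same reads called 14 of the 39 higher and 3 lower. Of all 17784 genes it called 4255 higher and 3414 lower. Among the 17, DESeq2 did not call *npp-3*, *npp-16*, *imb-1*, *imb-3* and *ran-3* (adjusted p between 0.0612 and 0.313). Left without *pri-1* RNAi replicate 1, *pri-1* RNAi replicate 3 or EV replicate 1, limma called 9, 8 and 9 of the 39 genes higher. Over all 14801 tested genes these fits called 1775, 1437 and 1710 higher, against 2564 with every library kept. The calls of *npp-10*, *npp-12*, *ima-2*, *xpo-2*, *xpo-3* and *ran-1* held in all 20 alternative fits, and none of the 18 called genes changed direction in any of them. Centring each library on its median moved the log2 fold change of all genes by about the same amount, to a median of 0.20. The centred fit called 18 of the 39 higher, and 3212 of all 14801 tested genes. Values below are given as deposited, without that shift.

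The largest absolute gain was in *ran-1*, which encodes the Ran GTPase itself (chromosome III, 10746581 to 10747728, minus strand, WBcel235). It had 1689, 1368 and 1966 CPM in *pri-1* RNAi embryos, against 384, 347 and 463 CPM in EV RNAi embryos. The lowest *pri-1* RNAi library was well above the highest EV RNAi library, and the rise was 4.19-fold (log2 fold change 2.07, SE 0.22, limma adjusted p = 0.000983). Per kilobase of coding sequence, *ran-1* had the highest level of the 39 genes in both groups, at 2596 ± 464 CPM per kb in *pri-1* RNAi embryos and 617 ± 91.6 CPM per kb in EV RNAi embryos (SD, n = 3 each).

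The regulators of Ran changed less or were less certain. *ran-3*, the counterpart of the exchange factor RCC1 that loads Ran with GTP on chromatin, had 139, 91.4 and 127 CPM in *pri-1* RNAi embryos, against 65.7, 69.6 and 72.3 CPM in EV RNAi embryos. It rose 1.69-fold (log2 fold change 0.76, SE 0.23, limma adjusted p = 0.0438). *ran-2* encodes RanGAP, which makes Ran hydrolyse its GTP in the cytoplasm. It had 165, 62.9 and 96.7 CPM in *pri-1* RNAi embryos, against 34.6, 62.2 and 14.4 CPM in EV RNAi embryos. The lowest *pri-1* RNAi library and EV replicate 2 were nearly level, and the log2 fold change of 1.65 had an SE of 0.56 and did not pass (limma adjusted p = 0.0631). *ran-2* passed in 8 of 20 alternative fits. Among them were the fit without EV replicate 2 (2.14, limma adjusted p = 0.0118) and edgeR (adjusted p = 0.0194). DESeq2, TMM scaling, median centring and quantile normalization were others. *ran-4*, the counterpart of NTF2, which returns Ran to the nucleus, had 80.6, 51 and 68.4 CPM in *pri-1* RNAi embryos, against 39.9, 39.4 and 39.0 CPM in EV RNAi embryos. The groups were separate in the deposited CPM. After TMM scaling they overlapped, with 54.5 CPM in *pri-1* RNAi replicate 2 and 56.0 CPM in EV replicate 3. The log2 fold change of *ran-4* was 0.73 (SE 0.25, limma adjusted p = 0.0634), which passed without *pri-1* RNAi replicate 2 (0.90, limma adjusted p = 0.0430). *ran-5* had 88.3, 50.98 and 58.2 CPM in *pri-1* RNAi embryos, against 79.4, 99.6 and 50.3 CPM in EV RNAi embryos, and the groups overlapped (log2 fold change -0.20, SE 0.33, limma adjusted p = 0.70). The call of *ran-3* was lost without either *pri-1* RNAi replicate 1 or 3 or either EV replicate 1 or 2, where its log2 fold change lay between 0.64 and 0.76, with TMM scaling (0.68, limma adjusted p = 0.105), with median centring (0.97, limma adjusted p = 0.0694), in edgeR (0.53, adjusted p = 0.200) and in DESeq2 (0.56, adjusted p = 0.221), among others.

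The importin alpha genes differed from each other. Importin alphas bind the localization signal of a cargo and link it to importin beta. *ima-2*, on chromosome I at 6315233 to 6317262 (plus strand), had 125, 62.2 and 114 CPM in *pri-1* RNAi embryos, against 23.1, 8.13 and 12.05 CPM in EV RNAi embryos. Even the lowest *pri-1* RNAi library was above each EV RNAi library by more than the range within EV RNAi, and the rise of 7.08-fold was the largest of the 39 genes (log2 fold change 2.82, SE 0.44, limma adjusted p = 0.00364). *ima-3* had 359, 342 and 367 CPM in *pri-1* RNAi embryos, against 309, 216 and 363 CPM in EV RNAi embryos. Its groups overlapped and its log2 fold change of 0.30 did not pass (SE 0.23, limma adjusted p = 0.391); it was -0.03 in edgeR and -0.0015 in DESeq2. *ima-1* had 17.3, 9.30 and 8.45 CPM in *pri-1* RNAi embryos, against 19.8, 45.3 and 6.13 CPM in EV RNAi embryos. The EV RNAi libraries of *ima-1* spread over a wider range than the groups differed, and the log2 fold change of -0.66 (SE 0.68, limma adjusted p = 0.518) was -1.39 without EV replicate 3 (limma adjusted p = 0.0461).

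The makeup of the importin alpha pool followed from these values. Over the sum of the 3 genes in CPM per kb of coding sequence, *ima-2* made up 24.4, 14.6 and 22.7% in *pri-1* RNAi embryos, against 6.37, 2.93 and 3.06% in EV RNAi embryos. Its share was separate between the groups, at 20.6% ± 5.22 in *pri-1* RNAi embryos and 4.12% ± 1.95 in EV RNAi embryos (SD, n = 3 each, exact two-sided permutation p = 0.1). *ima-3* made up most of the pool in every library, with 72.2, 83.1 and 75.6% in *pri-1* RNAi embryos and 88.1, 80.5 and 95.4% in EV RNAi embryos, and these overlapped (exact two-sided permutation p = 0.2, n = 3 each). The pool as a whole was 301 ± 30.4 CPM per kb in *pri-1* RNAi embryos and 216 ± 37.8 CPM per kb in EV RNAi embryos (SD, n = 3 each, exact two-sided permutation p = 0.1). The family in these groups was thus *ima-3* first, *ima-2* second in all 3 *pri-1* RNAi libraries, and *ima-1* above *ima-2* in EV replicate 2 alone.

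**Figure D2:**
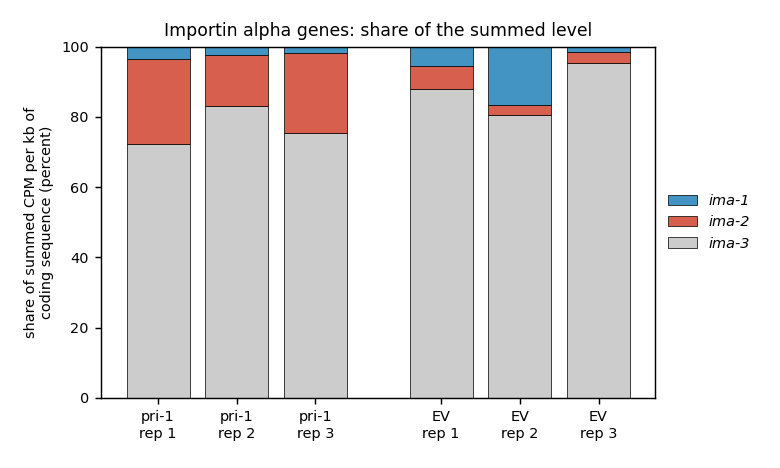
Makeup of the importin alpha transcript pool in each library. Bars give the share of *ima-1*, *ima-2* and *ima-3* in the sum of the 3 genes, in percent of CPM per kb of coding sequence, for the 3 *pri-1* RNAi libraries and then the 3 EV RNAi libraries. The *ima-2* share lies between 14.6 and 24.4% in *pri-1* RNAi and between 2.93 and 6.37% in EV RNAi.

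All 3 exportin genes changed, 2 upward and 1 downward. *xpo-2* encodes the counterpart of human CAS, the exportin that returns importin alpha to the cytoplasm, and lies on chromosome I at 318549 to 323352 (minus strand). It had 270, 202 and 285 CPM in *pri-1* RNAi embryos, against 73.6, 35.1 and 90.9 CPM in EV RNAi embryos, a 4.02-fold rise with no overlap (log2 fold change 2.01, SE 0.36, limma adjusted p = 0.00659). *xpo-1*, the counterpart of CRM1, exports proteins with a leucine-rich export signal. It had 934, 820 and 1045 CPM in *pri-1* RNAi embryos, against 316, 254 and 412 CPM in EV RNAi embryos, and this was a 2.89-fold rise with no overlap (log2 fold change 1.53, SE 0.24, limma adjusted p = 0.00354). Its call was lost in edgeR (1.21, adjusted p = 0.0690). *xpo-3*, the counterpart of exportin-t, carries tRNA out of the nucleus and was the only 1 of the 39 genes that fell. It had 23.8, 23.2 and 20.2 CPM in *pri-1* RNAi embryos, against 63.5, 78.1 and 53.3 CPM in EV RNAi embryos. The *pri-1* RNAi libraries were close to each other and below each EV RNAi library, at 0.353 of the EV RNAi level (log2 fold change -1.50, SE 0.25, limma adjusted p = 0.00466). *xpo-3* lies on chromosome IV at 7916689 to 7924032 (minus strand) and overlaps *C49H3.4* and *C49H3.16* on the other strand.

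Of the importin beta family, 2 of 3 genes rose. *imb-1*, importin beta itself, had 192, 107 and 155 CPM in *pri-1* RNAi embryos, against 75.1, 62.0 and 74.8 CPM in EV RNAi embryos. It rose 2.08-fold with no overlap (log2 fold change 1.06, SE 0.26, limma adjusted p = 0.0224). *imb-3*, related to human IPO5, had 598, 625 and 688 CPM in *pri-1* RNAi embryos, against 341, 188 and 446 CPM in EV RNAi embryos. Its rise was also 2.08-fold, with the larger spread among the EV RNAi libraries (log2 fold change 1.06, SE 0.32, limma adjusted p = 0.0435). *imb-2* encodes transportin, which carries RNA-binding proteins without an importin alpha, and had 86.6, 69.8 and 75.5 CPM in *pri-1* RNAi embryos, against 105, 83.7 and 91.0 CPM in EV RNAi embryos. These overlapped (log2 fold change -0.27, SE 0.21, limma adjusted p = 0.387). The call of *imb-1* was lost without *pri-1* RNAi replicate 1 or 3 or EV replicate 1, where its log2 fold change was between 0.87 and 1.10, in edgeR (0.82, adjusted p = 0.0858) and in DESeq2 (0.85, adjusted p = 0.0694). That of *imb-3* was lost without any of the *pri-1* RNAi libraries or EV replicate 1 (between 1.00 and 1.13), with TMM scaling (0.98, limma adjusted p = 0.176), with median centring (1.27, limma adjusted p = 0.133), in edgeR (0.64, adjusted p = 0.355) and in DESeq2 (0.67, adjusted p = 0.313), and with no filter or a minimum mean of 5 CPM (limma adjusted p = 0.0524 and 0.0545).

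**Figure D3:**
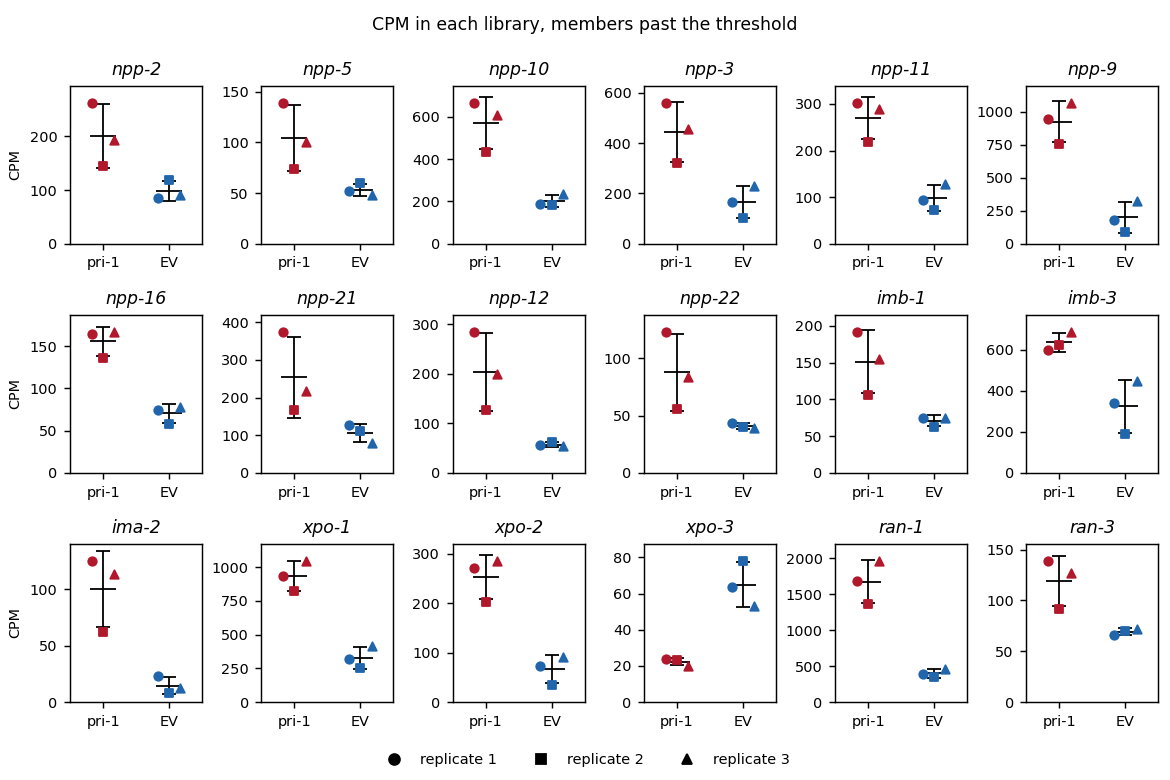
CPM in each library of the 18 genes past the limma test, 1 panel per gene, with a linear axis from 0. Points are libraries, with the 3 *pri-1* RNAi libraries left of the 3 EV RNAi libraries, and the lines give the group mean and the SD above and below it (n = 3 each). In *ran-1* the *pri-1* RNAi libraries sit between 1368 and 1966 CPM, against 347 to 463 CPM in EV RNAi, and *xpo-3* is the only gene whose *pri-1* RNAi points lie below those of EV RNAi.

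Of the 25 nucleoporin genes, 10 rose, none fell and 15 did not pass in limma (median log2 fold change 0.73). The 10 are 40% of these genes, against 17.3% of all tested genes that rose and 9.94% that fell. By edgeR, *npp-10*, *npp-12* and *npp-21* rose and *npp-20* and *npp-25* fell, where it called 20.2% of all genes higher and 15.5% lower. The share of nucleoporin genes that rose by edgeR was therefore not above that of all genes. The largest change was in *npp-9*, the counterpart of Nup358 (RanBP2), a Ran-binding nucleoporin of the filaments on the cytoplasmic face. It had 947, 760 and 1070 CPM in *pri-1* RNAi embryos, against 184, 91.2 and 324 CPM in EV RNAi embryos. Despite the wide range among EV RNAi libraries the groups were far apart, and *npp-9* rose 5.20-fold (log2 fold change 2.38, SE 0.43, limma adjusted p = 0.0065), though its call was lost in edgeR (1.81, adjusted p = 0.0530). The other listed genes of that face, *npp-14* (counterpart of Nup214) and *npp-24* (counterpart of Nup88), overlapped between the groups and did not pass, with log2 fold changes of 0.84 and 0.31. *npp-14* passed with median centring (1.05, limma adjusted p = 0.0419) and with quantile normalization (0.83, limma adjusted p = 0.0486).

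In the Y complex of the outer ring, 3 of 8 genes rose. *npp-10* encodes a precursor that is cut into the counterparts of Nup98 and Nup96, and had 665, 433 and 609 CPM in *pri-1* RNAi embryos, against 188, 183 and 233 CPM in EV RNAi embryos. It rose 2.79-fold (log2 fold change 1.48, SE 0.23, limma adjusted p = 0.00377). *npp-2*, the counterpart of Nup85, had 262, 145 and 193 CPM in *pri-1* RNAi embryos, against 84.7, 119 and 90.1 CPM in EV RNAi embryos (log2 fold change 1.00, SE 0.27, limma adjusted p = 0.0318). *npp-5*, the counterpart of Nup107, had 139, 73.9 and 100 CPM in *pri-1* RNAi embryos, against 52.5, 59.9 and 48.1 CPM in EV RNAi embryos, a rise of 1.89-fold (log2 fold change 0.92, SE 0.28, limma adjusted p = 0.0438). In all 3 genes the groups were separate and *pri-1* RNAi replicate 2 was the lowest of its group. Without *pri-1* RNAi replicate 1 or 3 or EV replicate 1, the calls of *npp-2* (log2 fold change 0.78 to 1.00) and *npp-5* (0.69 to 0.92) were lost, and that of *npp-5* also without EV replicate 3 (0.84). Both were also lost in edgeR (0.80, adjusted p = 0.0598 for *npp-2*, and 0.73, adjusted p = 0.0617 for *npp-5*) and with the replicate block (limma adjusted p = 0.0660 and 0.0786).

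The rest of the Y complex did not pass in limma. *npp-20*, the counterpart of Sec13, is also a subunit of the COPII coat that buds vesicles from the endoplasmic reticulum. It had 59.6, 58.4 and 54.1 CPM in *pri-1* RNAi embryos, against 103, 122 and 74.1 CPM in EV RNAi embryos. The 3 *pri-1* RNAi libraries were nearly equal and below each EV RNAi library, with a log2 fold change of -0.77 (SE 0.25) just outside the threshold in limma (adjusted p = 0.0533). It passed without EV replicate 3 (-0.96, limma adjusted p = 0.0133), with TMM scaling (-0.84, limma adjusted p = 0.0160), with quantile normalization (-0.70, limma adjusted p = 0.0305) and in edgeR (adjusted p = 0.0146). *npp-6* (counterpart of Nup160), *npp-15* (Nup133), *npp-18* (Seh1) and *npp-23* (Nup43) overlapped between the groups, with log2 fold changes of 0.63, 0.94, 0.09 and 0.03. *npp-15* passed without EV replicate 2 (1.29, limma adjusted p = 0.0255) and with each other scaling tried (0.87 to 1.16), while *npp-18* and *npp-23* were below 0 in edgeR and DESeq2.

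Of the inner ring and the central channel, 1 gene each rose. *npp-3*, the counterpart of Nup205 in the inner ring, had 560, 321 and 454 CPM in *pri-1* RNAi embryos, against 165, 100.8 and 228 CPM in EV RNAi embryos, a rise of 2.77-fold (log2 fold change 1.47, SE 0.34, limma adjusted p = 0.0177). *npp-11*, the counterpart of the channel nucleoporin Nup62, had 303, 219 and 290 CPM in *pri-1* RNAi embryos, against 94.6, 72.2 and 128 CPM in EV RNAi embryos, a rise of 2.79-fold (log2 fold change 1.48, SE 0.27, limma adjusted p = 0.00647). Both were separate between the groups, and EV replicate 2 was the lowest library in both. *npp-19*, the counterpart of Nup35, had 114.6, 62.4 and 83.96 CPM in *pri-1* RNAi embryos, against 55.05, 48.6 and 52.7 CPM in EV RNAi embryos. It did not pass although the groups were separate in the deposited CPM (log2 fold change 0.69, SE 0.27, limma adjusted p = 0.0957). The remaining genes were *npp-8* (counterpart of Nup155, log2 fold change -0.35), *npp-13* (Nup93, -0.55), *npp-1* (Nup54, 0.31) and *npp-4* (Nup58, 0.38), none past the test in limma. Among them only *npp-4* was separate between the groups, in the deposited CPM and not after TMM scaling. The call of *npp-3* was lost without *pri-1* RNAi replicate 1 or 3 or EV replicate 1 (1.29 to 1.51) with TMM scaling (1.39, limma adjusted p = 0.0565), in edgeR (1.07, adjusted p = 0.124) and in DESeq2 (1.09, adjusted p = 0.0786), and that of *npp-11* in edgeR (1.13, adjusted p = 0.0680), while *npp-13* passed as lower without EV replicate 2 (-0.88, limma adjusted p = 0.0321) and *npp-19* as higher without *pri-1* RNAi replicate 2 (0.91, limma adjusted p = 0.0499).

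At the nuclear basket, which faces the chromatin, 2 of 3 genes rose. *npp-16*, the counterpart of Nup50, had 164, 136 and 167 CPM in *pri-1* RNAi embryos, against 74.7, 58.1 and 78.4 CPM in EV RNAi embryos, a rise of 2.21-fold with close replicates (log2 fold change 1.14, SE 0.22, limma adjusted p = 0.00779). *npp-21*, the counterpart of TPR, had 374, 167 and 218 CPM in *pri-1* RNAi embryos, against 127, 112 and 78.7 CPM in EV RNAi embryos, a rise of 2.30-fold (log2 fold change 1.20, SE 0.34, limma adjusted p = 0.0342). *npp-7*, the counterpart of Nup153, had 400, 264 and 301 CPM in *pri-1* RNAi embryos, against 242, 149 and 194 CPM in EV RNAi embryos. Its groups were separate but it did not pass (log2 fold change 0.73, SE 0.26, limma adjusted p = 0.0738). The call of *npp-16* was lost without *pri-1* RNAi replicate 3 (1.09, limma adjusted p = 0.0592), in edgeR (0.87, adjusted p = 0.0794) and in DESeq2 (0.90, adjusted p = 0.0612), and that of *npp-21* without *pri-1* RNAi replicate 1 or 3 or EV replicate 1 or 3 (0.88 to 1.34).

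Of the nucleoporins that span the membrane, 2 of 3 rose. *npp-12*, the counterpart of gp210 (chromosome I, 6447304 to 6453954, plus strand), had 285, 126 and 199 CPM in *pri-1* RNAi embryos, against 56.6, 61.8 and 53.4 CPM in EV RNAi embryos. The EV RNAi libraries were close together and all *pri-1* RNAi libraries were above them, 3.35-fold in all (log2 fold change 1.74, SE 0.31, limma adjusted p = 0.00594). *npp-22*, the counterpart of NDC1, had 123.1, 55.7 and 84.1 CPM in *pri-1* RNAi embryos, against 43.6, 40.2 and 38.9 CPM in EV RNAi embryos, a rise of 2.03-fold (log2 fold change 1.02, SE 0.31, limma adjusted p = 0.0449). Leaving out any library but *pri-1* RNAi replicate 2 ended its call (0.74 to 1.07), as did edgeR (0.84, adjusted p = 0.0636) and the replicate block (limma adjusted p = 0.0584). *npp-25* had 12.7, 16.9 and 11.1 CPM in *pri-1* RNAi embryos, against 24.04, 30.04 and 17.8 CPM in EV RNAi embryos, and was separate downward without passing (log2 fold change -0.79, SE 0.32, limma adjusted p = 0.112). It passed without EV replicate 3 (-0.98, limma adjusted p = 0.0393), with TMM scaling (-0.86, limma adjusted p = 0.0449) and in edgeR (adjusted p = 0.0408). The last member, *npp-26*, was near the filter at 1.23, 0.913 and 0.842 CPM in *pri-1* RNAi embryos, against 0.774, 2.46 and 0.261 CPM in EV RNAi embryos. The table has no gene named *npp-17*; *rae-1*, its other name, was looked up after the values were seen and had 149, 101.4 and 129 CPM in *pri-1* RNAi embryos, against 75.0, 83.99 and 92.3 CPM in EV RNAi embryos (log2 fold change 0.58, limma adjusted p = 0.0971).

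Levels relative to each other, per kb of coding sequence, changed their order below *ran-1*. In *pri-1* RNAi embryos ranks 2 to 5 were held by *npp-9* (349 ± 58.9 CPM per kb), *xpo-1* (288 ± 34.7), *ima-3* (231 ± 8.34) and *imb-3* (194 ± 14.03). In EV RNAi embryos *ima-3* held rank 2 (192 ± 48.3 CPM per kb), *npp-20* rank 3 (106 ± 25.7), *xpo-1* rank 4 (100.97 ± 24.5), *imb-3* rank 5 (99.2 ± 39.6) and *npp-9* rank 8 (75.3 ± 44.3), each as the mean and SD of 3 libraries. *npp-20* held rank 21 in *pri-1* RNAi embryos (61.1 ± 3.08 CPM per kb). The EV RNAi levels from rank 3 to rank 8 lay within 1 SD of each other or close to it, as did *npp-9* and *xpo-1* in *pri-1* RNAi embryos, and the order was not tested. *ima-2* stood at 63.1 CPM per kb in *pri-1* RNAi embryos and at 9.05 CPM per kb in EV RNAi embryos.

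Libraries of the same group differed in a pattern shared by many of the genes. *pri-1* RNAi replicate 1 was the highest of its group in 29 of the 39 genes and *pri-1* RNAi replicate 2 the lowest in 31, and replicate 1 was above replicate 2 in 35. The EV RNAi libraries had no such common order, with EV replicate 2 above EV replicate 3 in 21 genes and below it in 18. A difference of over 2-fold between these libraries ran toward EV replicate 2 in 8 genes (*npp-1*, *npp-6*, *npp-15*, *npp-23*, *npp-24*, *npp-26*, *ima-1* and *ran-2*) and toward EV replicate 3 in 5 (*npp-3*, *npp-9*, *npp-13*, *imb-3* and *xpo-2*). After TMM scaling 19 genes were separate upward, against 22 in the deposited CPM. Over all 14801 tested genes 3653 were separate upward after TMM scaling, against 3755 in the deposited CPM. With that scaling the groups of *npp-4*, *npp-19*, *imb-3*, *ran-3* and *ran-4* overlapped, and those of *npp-14* and *npp-15* became separate.

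**Figure D4:**
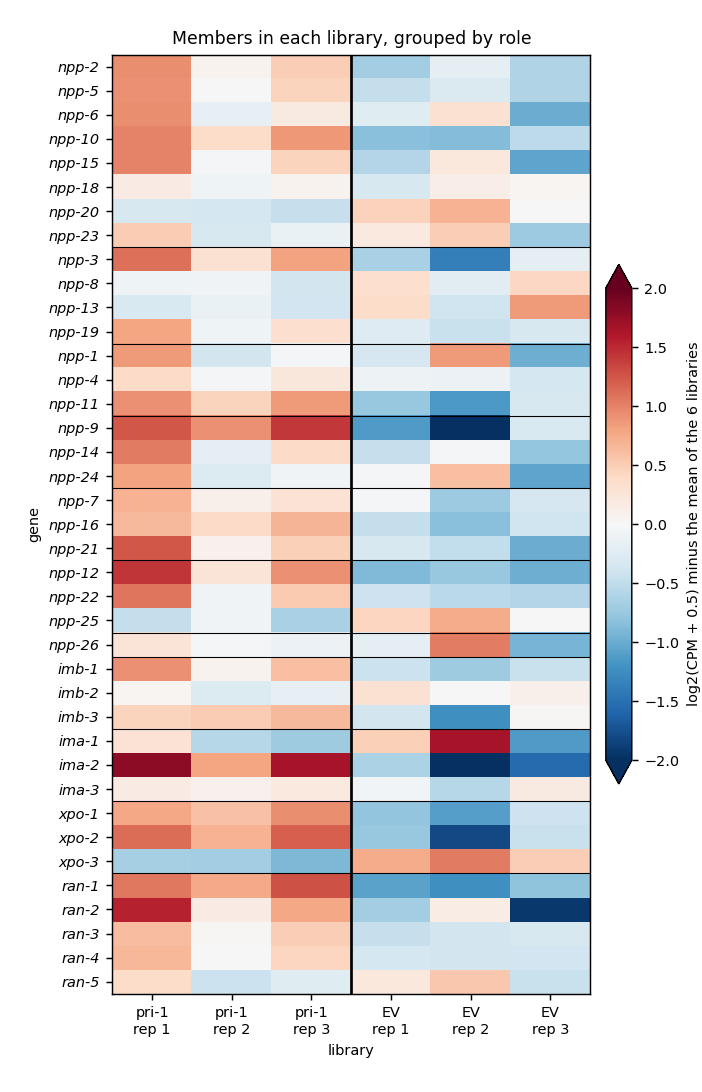
Level of each of the 39 genes in each library, as log2(CPM + 0.5) minus the mean of the gene over the 6 libraries. Rows are genes in groups by role, and columns are the 3 *pri-1* RNAi libraries followed by the 3 EV RNAi libraries. Replicate 1 is the highest *pri-1* RNAi library in 29 genes, and EV replicates 2 and 3 differ from each other in both directions.

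The genes are spread over the autosomes, with 13 on chromosome I, 8 on II, 8 on III, 7 on IV and 3 on V. *npp-15* and *ran-2* lie 479 bases apart on the plus strand of chromosome III, with log2 fold changes of 0.94 and 1.65, neither past the test in limma. *imb-3* and *xpo-2* lie 3559 bases apart on the minus strand of chromosome I and both rose. On the same strand, 3 members overlap another coding gene (*npp-3* with *K12D12.4*, *npp-6* with *slx-1* and *npp-24* with *cyp-44A1*), where assignment of shared reads is uncertain. In all, 14 members, *npp-3* and *npp-24* among them, overlap a gene on the opposite strand, which the directional library kit can tell apart where the assignment used strand.

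Genes that work with the pore were looked at as fixed lists. Of 17 genes of the nuclear envelope and lamina, 7 rose and none fell in limma (median log2 fold change 0.89): *lem-4*, *unc-84*, *baf-1*, *samp-1*, *lpin-1*, *lmn-1* and *lem-2*. The 7 are 41.2% of the list, against 17.3% of all tested genes that rose and 9.94% that fell. *lem-4*, which acts in rebuilding the envelope after mitosis, had 218, 150 and 210 CPM in *pri-1* RNAi embryos, against 57.8, 53.8 and 40.3 CPM in EV RNAi embryos (log2 fold change 1.91, SE 0.25, limma adjusted p = 0.00189). *unc-84*, a SUN domain protein of the inner membrane, had 657, 373 and 550 CPM in *pri-1* RNAi embryos, against 159, 119 and 154 CPM in EV RNAi embryos (log2 fold change 1.84, SE 0.26, limma adjusted p = 0.00267). *baf-1*, which bridges chromatin and LEM domain proteins, had 490, 295 and 462 CPM in *pri-1* RNAi embryos, against 143, 150 and 158 CPM in EV RNAi embryos (log2 fold change 1.43, SE 0.24, limma adjusted p = 0.00502).

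Of 15 tested genes of mRNA export, 4 rose and none fell in limma (median log2 fold change 0.45): *aly-2*, *aly-1*, *hel-1* and *nxf-1*. The 4 are 26.7% of the list, against 17.3% of all tested genes that rose and 9.94% that fell, and *nxf-1* was at the threshold (limma adjusted p = 0.04998). *aly-2*, an adaptor that binds mRNA for export, had 213, 137 and 179 CPM in *pri-1* RNAi embryos, against 46.9, 43.3 and 32.2 CPM in EV RNAi embryos (log2 fold change 2.09, SE 0.26, limma adjusted p = 0.00157). Its relative *aly-1* had 642, 352 and 487 CPM in *pri-1* RNAi embryos, against 202, 240 and 155 CPM in EV RNAi embryos (log2 fold change 1.29, SE 0.28, limma adjusted p = 0.0135). *hel-1*, the counterpart of the RNA helicase UAP56, had 1961, 1523 and 1960 CPM in *pri-1* RNAi embryos, against 799, 610 and 1055 CPM in EV RNAi embryos (log2 fold change 1.17, SE 0.26, limma adjusted p = 0.0138).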

How the data were processed

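RNA-seq was analysed from 3 *pri-1* RNAi and 3 EV RNAi libraries of N2 embryos, grouped by their labels. The authors trimmed the reads with Trimmomatic 0.36, quantified them with Salmon 1.4.0 against the Ensembl WBcel235 transcriptome with a correction for GC bias and summed them into genes with tximport. The deposited values are CPM for 19933 genes, and each library sums to 1000000. The authors' own edgeR test was not used.

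The filter, a minimum of 0.5 CPM in 3 or more libraries, kept 14801 genes. Their log2(CPM + 0.5) values were fitted with limma 3.58.1 in R 4.3.3 (lmFit, eBayes with trend, no covariate), with Benjamini-Hochberg adjustment over all 14801 and a threshold of 0.05. A fold change on this scale understates that of low genes. Exact two-sided permutation tests compared single values. Low CPM values are multiples of a step taken as 1 read, and 94.8 to 96.2% of values up to 20 reads came out whole within 0.1 of a read. Reads recovered this way were tested with edgeR 4.0.16 and DESeq2 1.42.0 as alternatives, beside other pseudocounts, filters, scalings, blocks and fits without each library. Precision rests on the spread between libraries.

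Gene positions and coding lengths came from Ensembl release 115 for WBcel235, which held all 39 symbols. The members and the gene lists were chosen with earlier results of these data known. Values in every library are given for each member past the threshold, for each importin, exportin and Ran gene, and for the 3 other nucleoporin genes of smallest p. The values of other nucleoporin genes in every library, where given, were chosen after being seen. Of each further list, the 3 genes of smallest p have values. Of the other marker lists, the early zygotic genes had 2 of 10 tested higher (20%) and the late muscle genes 2 of 12 lower (16.7%). Over all tested genes 17.3% were higher and 9.94% lower. Only 3 of 13 sperm genes passed the filter, and 2 of these were higher. The 3 had group means between 0.52 and 2.29 CPM, near the filter.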

Additional observations from a re-analysis of the deposited data

How the results depend on the processing

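The count of nuclear pore and transport genes that rose in *pri-1* RNAi embryos, 17 by limma, was 26 with a replicate block by library number, 7 by edgeR on recovered reads, 9 by edgeR on those reads divided by 2 (chosen after seeing the data) and 9 at an adjusted p threshold of 0.01, and between 8 and 18 without 1 library each. It was between 13 and 21 in the other alternatives. Over all 14801 tested genes the count that rose was 2564 by limma, 4159 with the block by library number and between 1437 and 2853 without 1 library each. By edgeR it was 3599 of 17784 genes, and on the divided reads 3388 of 16757. In the other alternatives it was between 1059 of 10205 and 4255 of 17784 genes. In the block by library number, EV replicate 2 and *pri-1* RNAi replicate 3 shared their number with no library of the other group. The difference between the groups in that fit therefore rested on the other libraries. The count that fell, 1 by limma, was 3 with TMM scaling, 2 with quantile normalization, 2 with the block by library number and 3 each by edgeR, DESeq2 and edgeR on divided reads, and between 1 and 4 without 1 library each. The median log2 fold change of 0.76 was 0.53 by edgeR and between 0.58 and 0.94 without 1 library each. The cause of these differences was not tested.

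Of the 21 genes not past the test, 13 passed in at least 1 alternative and 8 of the 39 changed direction in at least 1. *npp-18* was -0.15 by edgeR, -0.12 by DESeq2 and -0.12 by edgeR on divided reads. *npp-23* was -0.049 with TMM scaling, -0.15 by edgeR, -0.11 by DESeq2 and -0.11 on divided reads. *npp-26* was -0.55 with quantile normalization, -0.19 by edgeR, -0.16 by DESeq2 and -0.17 on divided reads. *ima-3* was -0.029 by edgeR and -0.0015 by DESeq2. *ima-1* was 0.19 with the block by library number, and *ran-5* was 0.086 with it and 0.012 with median centring. Without 1 library each, *npp-1* had a range from -0.10 to 0.81, *npp-18* from -0.042 to 0.19, *npp-23* from -0.33 to 0.28, *npp-24* from -0.13 to 0.69, *npp-26* from -0.39 to 0.59, *ima-1* from -1.39 to 0.00041 and *ran-5* from -0.47 to 0.018.

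Whether the replicate numbers in the labels pair the libraries is not known. Deviations from the group means correlated at 0.04, -0.32 and 0.46 between libraries of the same replicate number, and not every library correlated best with its own number. Libraries of the same library number correlated at 0.04 and 0.37. Within a group such deviations depend on each other, so these correlations cannot decide whether libraries were paired. With the replicate block 13 of the 39 genes rose, and 2110 of all 14801 tested genes. Of all genes past the test, 63.5% were higher in *pri-1* RNAi with limma and 49.2% with quantile normalization, 49.3% with a minimum mean of 5 CPM and 72.5% with no filter. The lowest gene was *npp-26*, near 1 CPM, and each of the others had at least 6.13 CPM in every library.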
